A study of Bos taurus with 3 samples.

Results

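The genes described here make cholesterol, control its synthesis, or carry it into, through and out of the cell. They were taken by symbol from a list of 29 genes, of which 28 have a row among the 31903 genes of the count table. STARD4, a cytosolic sterol carrier, was not analysed here. The RNA came from BFF116 cells, fibroblasts of a bovine fetus that were grown in culture and supply the nuclei when cattle are cloned. The 3 samples form a single group, and each was made from 70000 cells harvested as they would be for transfer of their nuclei, after 48 h without serum to synchronise the cell cycle. The labels name no genotype, treatment or animal that differs between the samples. Cells kept in serum were not part of the design, so no level can be tied to its absence, and fewer cells of a type and less RNA per cell cannot be told apart in such bulk samples. The labels call the samples biological replicates without naming the culture or animal of each, so p-values measure only the spread between these samples, which may be technical.

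Animal cells build cholesterol from acetyl-CoA by way of mevalonate, which is turned into prenyl units, joined into squalene, closed to the first sterol, lanosterol, and trimmed to cholesterol. Transcription of most of these enzymes is driven by the SREBP factors, which are made as membrane-bound precursors. When sterols are scarce, the escort protein SCAP carries the precursor to the Golgi, where a pair of proteases releases the active factor, and when sterols are plentiful the INSIG proteins hold SCAP back. Cholesterol that enters with lipoproteins leaves the lysosome through NPC2 and NPC1, and surplus is stored as ester or exported.

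Gene counts ranged from 4842331 to 8608350 reads per library. In each pair of libraries 35.6 to 60.6% of genes differed beyond counting error, so no library was a copy of another. Fibroblast markers fixed for a check of the label reached 1 CPM (CPM is a count scaled to the size of its library) in each library for 11 of 11 genes, with summed levels of 114610.0, 105067 and 116330.0 CPM in replicates 1 to 3. Of cell types that handle much cholesterol, the steroid-producing cells had STAR at 8.91, 3.63 and 3.38 CPM, with CYP11A1 and NR5A1 at 0 reads. None of the 4 hepatocyte genes reached that level throughout, with ALB at 0, 2 and 0 reads and APOA1 at 0, and their summed level was 0.119, 0.605 and 1.13 CPM. The macrophage and leukocyte list had 2 of 5, LYZ and CD68, and summed to 7.25, 4.03 and 9.01 CPM, with PTPRC and CD14 at 0 reads. The adipocyte list had 3 of 4 and summed to 11.0, 15.9 and 10.6 CPM, with ADIPOQ below 1 CPM in every library. Epithelial genes had 0 of 5 (EPCAM at 0 reads) and endothelial genes 1 of 3 (KDR at 0 reads). The part of these markers in the sterol gene levels was not tested.

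Transcripts for every enzyme, regulator and carrier of the list that has a row were present in all libraries. All 28 genes reached 1 CPM in each library, against 34.6% of all listed genes, and 23 of them were at 5 CPM or more in each. The members were chosen with earlier results of these data known, so this contrast may be partly set by the choice. The median of their mean levels was 54.2 CPM, beside 23.1 CPM for the 10434 genes with 10 or more reads in every library, which are called the tested genes below. CPM is not divided by transcript length, and no transcript lengths were used here, so values of different genes show how many reads each gave, not which transcript was more numerous. The summed level of the 28 genes was 3042, 2923 and 2883 CPM in replicates 1 to 3 (2949 ± 83.0, SD, n = 3). HMGCS1 and SQLE held 47.8% of the mean sum. Without them the sum was 1553, 1498 and 1568 CPM, another order of the libraries. Replicate 1, the highest in the whole sum, was highest for SQLE and lowest for HMGCS1. Of the whole sum the 17 enzymes of synthesis, HMGCS1 and SQLE among them, held 2613, 2498 and 2406 CPM. The 7 regulators held 272, 268 and 295 CPM, and the 4 genes of transport, storage and export 157, 157 and 181 CPM.

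**Figure D1:**
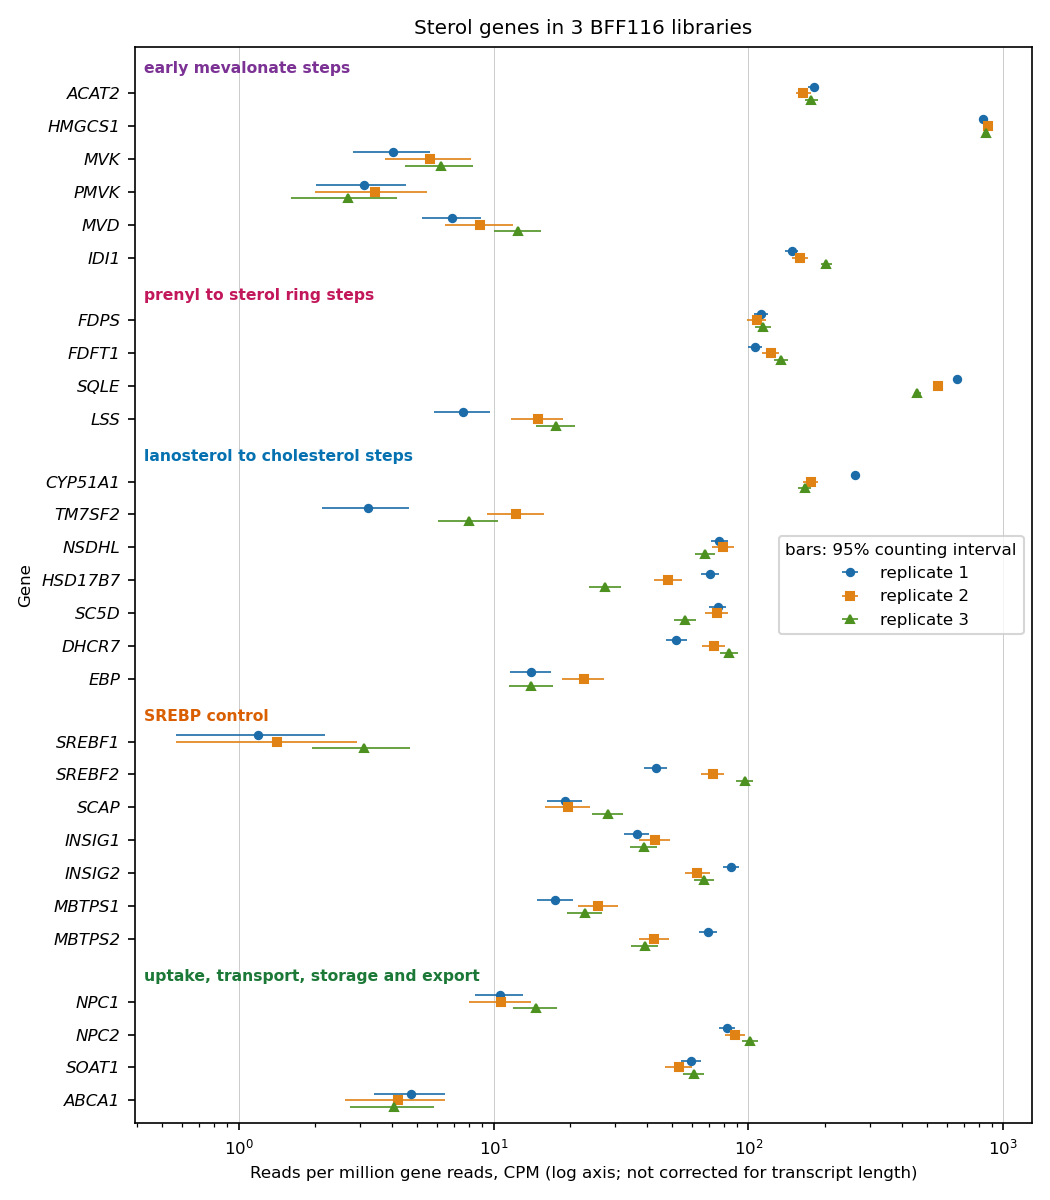
Level of each of the 28 sterol genes in CPM on a log axis, grouped by role, with 1 symbol per replicate and bars for the 95% counting interval. HMGCS1 lies between 831 and 871 CPM in all libraries, while TM7SF2 lies at 3.21 CPM in replicate 1 and at 12.3 CPM in replicate 2.

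No tested sterol gene was called more variable between the replicates than the trend of all genes. By a negative binomial Pearson statistic against the edgeR dispersion trend, 0 of 27 tested members passed an adjusted p of 0.05, where the background was 0.0192% of the tested genes. SREBF1, with 7 to 22 reads per library, was the member left out by the count minimum. With 3 libraries this test can miss many real differences, so the absence of calls does not show that members are stable. At an unadjusted p under 0.05 there was 1 member, HSD17B7 (adjusted p = 0.905 by edgeR), against 5.24% of tested genes, and DESeq2 marked 0 members as dispersion outliers. The common biological coefficient of variation of the tested genes was 27.3%. Set against counting error alone, which PCR copies make too narrow, 18 of 27 members differed between libraries, and 70.5% of tested genes did. The Pearson statistic of 16 of 27 members lay below the median of all tested genes, and the median coefficient of variation was 17.7% for the members and 22.4% for the tested genes. The spread given by the edgeR trend was smaller at high level, 36.0% for ABCA1 and 20.5% for HMGCS1. The members' median level was higher, 54.2 against 23.1 CPM, so their lower coefficient of variation alone does not set them apart.

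**Figure D2:**
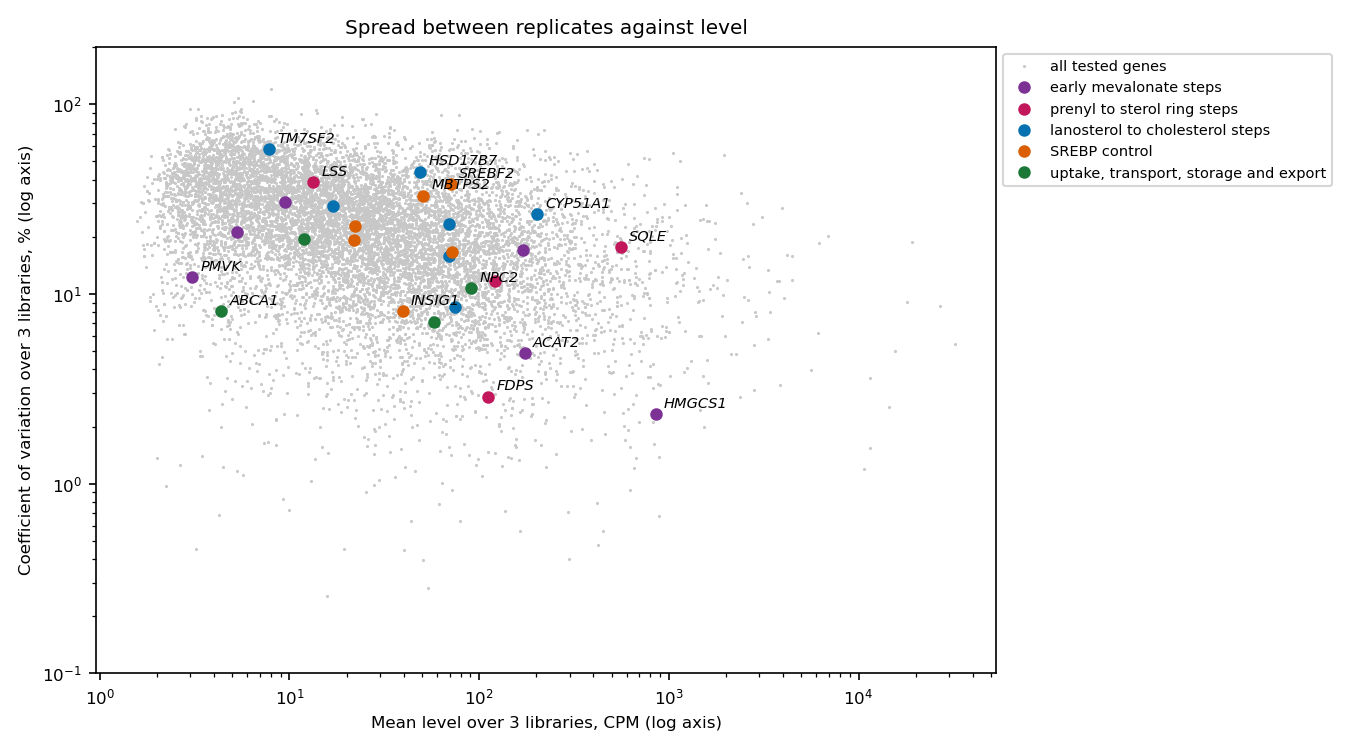
Coefficient of variation over the 3 libraries against mean level for all tested genes (grey) and for the 27 tested sterol genes (coloured by role), both axes logarithmic. The members range from HMGCS1 at 2.32% to TM7SF2 at 58.0% and lie within the cloud of the other genes.

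The first enzymes of the pathway had nearly the same level in every library. ACAT2, the cytosolic thiolase that joins acetyl-CoA units, stood at 180.4, 164 and 177 CPM in replicates 1 to 3 (mean 174 ± 8.49, SD, n = 3). HMGCS1, which makes HMG-CoA, stood at 831, 871 and 855 CPM (852 ± 19.8), and its highest library exceeded its lowest by 1.05-fold. Only 1.98% of tested genes had a smaller Pearson statistic than HMGCS1. Reads of ACAT2 carry an uncertainty, because its span overlaps that of TCP1, a chaperonin subunit gene with 4564 reads in all, and the strand setting of the counting is not given in the sources used here.

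Few reads came from the kinases and the decarboxylase that follow. MVK, mevalonate kinase, had 34, 28 and 44 reads or 4.04, 5.64 and 6.19 CPM. PMVK, phosphomevalonate kinase, had 26, 17 and 19 reads or 3.09, 3.43 and 2.67 CPM. The counting intervals of the 3 libraries overlapped for each of these kinases, so differences between libraries were not detectable at this depth. MVD, the decarboxylase that yields isopentenyl diphosphate, stood at 6.89, 8.87 and 12.5 CPM, and its library from replicate 3 lay above replicate 1 by 1.82-fold, beyond the counting intervals. IDI1, the isomerase of the prenyl units, stood at 148, 159 and 202 CPM (169.8 ± 28.9), with replicate 3 above both others by more than counting error. Of these 6 early genes 2, MVD and IDI1, differed between libraries beyond counting error, where 70.5% of tested genes did.

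In the stretch from prenyl units to the sterol ring, FDPS differed little between libraries, and SQLE was highest in the library where LSS was lowest. FDFT1, SQLE and LSS, 3 of these 4 genes, differed beyond counting error, a share near the 70.5% of all tested genes. FDPS, which makes farnesyl diphosphate for sterols and for prenylated proteins alike, stood at 112, 108 and 114 CPM, and 2.27% of tested genes had a smaller Pearson statistic. FDFT1, squalene synthase, commits farnesyl diphosphate to sterols and stood at 106, 122 and 135 CPM (121 ± 14.2). SQLE, the epoxidase of squalene and a rate-limiting step, stood at 658, 554 and 460.1 CPM (557 ± 98.8), highest in replicate 1. LSS, which closes the ring to lanosterol, had 64, 74 and 125 reads or 7.60, 14.9 and 17.6 CPM (13.4 ± 5.17), lowest in replicate 1 and 2.31-fold higher in replicate 3. The counting intervals of SQLE did not overlap between any pair of libraries, and that of LSS in replicate 1 lay apart from both others. Neither gene passed the test against the trend (adjusted p = 1.00 for each, edgeR trend).

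The enzymes that turn lanosterol into cholesterol had the widest spread of the 5 role groups, with a median coefficient of variation of 26.3%, and all 7 of them differed between libraries beyond counting error (background 70.5% of tested genes). CYP51A1, the demethylase that acts first on lanosterol, stood at 263, 176 and 166 CPM, high in replicate 1 and alike in the other libraries. TM7SF2, a sterol reductase of the next step, had 27, 61 and 57 reads or 3.21, 12.3 and 8.02 CPM, the lowest level in replicate 1 and a 3.83-fold span. NSDHL, a dehydrogenase that helps to remove the methyl groups at carbon 4 of the ring, stood at 76.9, 79.4 and 67.4 CPM, a span of 1.18-fold. HSD17B7, the ketoreductase of the same demethylation, stood at 70.4, 48.4 and 27.4 CPM (48.7 ± 21.5), 2.57-fold higher in replicate 1 than in replicate 3, with no overlap of the counting intervals of any pair.

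The last reactions reshape the double bonds of the ring. EBP, the sterol isomerase, stood at 14.02, 22.6 and 14.07 CPM, highest in replicate 2 and the same in both others within counting error. SC5D, the desaturase, stood at 75.9, 75.2 and 56.6 CPM, with replicate 3 lowest. DHCR7, which reduces 7-dehydrocholesterol to cholesterol, stood at 52.1, 72.9 and 84.1 CPM, with replicate 1 lowest and a span of 1.61-fold. The deviations thus differed in direction within the group, CYP51A1 and HSD17B7 being highest in replicate 1 and TM7SF2 and DHCR7 lowest there.

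Among the regulators, SREBF2 varied most of those tested and INSIG1 least. SREBF2, the gene of the SREBP form that chiefly drives cholesterol genes, had 364, 359 and 687 reads or 43.2, 72.3 and 96.7 CPM (70.7 ± 26.8), with no overlap of the counting intervals and a span of 2.24-fold. Its Pearson statistic exceeded that of 91.9% of tested genes, and it did not pass (adjusted p = 1.00, edgeR trend). SREBF1, whose products chiefly drive fatty acid genes, had 10, 7 and 22 reads, which gives 1.19, 1.41 and 3.10 CPM with counting intervals of 0.570 to 2.18, 0.567 to 2.91 and 1.94 to 4.69. These intervals overlap, and the mean of 1.90 CPM was 1.30 without replicate 3. The span of SREBF1 overlaps that of RAI1, which had 186 reads, so its few reads are uncertain to that extent.

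The retention and escort genes had smaller coefficients of variation, 8.14 to 22.7%, than SREBF2 at 37.8%. INSIG1, itself a target of SREBP, stood at 36.6, 42.9 and 38.8 CPM (39.4 ± 3.21), within counting error in all libraries. INSIG2, which in many cells responds less to sterols, stood at 85.4, 63.1 and 66.8 CPM (71.8 ± 12.0), highest in replicate 1. SCAP, the escort and sterol sensor, stood at 19.0, 19.5 and 28.0 CPM (22.2 ± 5.04). It was highest in replicate 3, as were SREBF2 and 36.3% of all tested genes.

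Of the genes of the activating proteases, MBTPS1 was lowest in the library where MBTPS2 was highest. MBTPS1, the site-1 protease that cuts first, stood at 17.5, 25.8 and 22.8 CPM (22.0 ± 4.22), lowest in replicate 1. MBTPS2, the site-2 protease that cuts within the membrane, stood at 69.5, 42.7 and 39.1 CPM (50.4 ± 16.6), highest in replicate 1 by 1.78-fold over replicate 3. Both genes differed beyond counting error and neither passed the test against the trend (adjusted p = 1.00 for each, edgeR trend).

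The 4 listed genes that move and store cholesterol had the lowest median coefficient of variation of the 5 role groups, 9.38%. It was 25.1% for the 9 tested genes of transport, storage and export and 21.1% for the 8 of uptake that are not on the list of 29, so the low value belongs to these 4 genes. NPC2, the soluble lysosomal protein that hands cholesterol on, stood at 82.6, 88.7 and 102 CPM (90.9 ± 9.72), and it was the 1 of these 4 genes that differed beyond counting error (background 70.5% of tested genes). NPC1, its membrane-bound partner, stood at 10.6, 10.7 and 14.6 CPM (12.0 ± 2.31), with overlapping counting intervals. The span of NPC1 overlaps the gene listed as C24H18orf8, which had 505 reads, so its reads are uncertain to that extent. SOAT1, which esterifies cholesterol for storage, stood at 59.5, 53.2 and 60.9 CPM (57.9 ± 4.11). ABCA1, the exporter that loads cholesterol onto apolipoproteins and a target of the liver X receptors, had 40, 21 and 29 reads or 4.75, 4.23 and 4.08 CPM, and 5.29% of tested genes had a smaller Pearson statistic. SOAT1 and ABCA1 did not pass the test against counting error.

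Replicate 1 was the lowest library for 15 of the 27 tested members (background 40.3% of all tested genes), replicate 2 for 4 (24.2%) and replicate 3 for 8 (35.4%). The highest library was replicate 1 for 8 members (background 39.3%), replicate 2 for 7 (24.4%) and replicate 3 for 12 (36.3%). The median log2 deviation from each gene's own mean was -0.10, 0.02 and 0.03 in replicates 1 to 3 over the members, and -0.0039, 0.0082 and 0.008 over the tested genes. By role it was -0.11, -0.0068 and 0.13 for the early steps and -0.08, 0.01 and 0.10 for the steps to the ring. It was 0.05, 0.09 and -0.22 for the steps after lanosterol, -0.15, -0.02 and 0.02 for SREBP control, and -0.05, -0.08 and 0.12 for transport, storage and export. The steps after lanosterol were thus the 1 group with a median below 0 in replicate 3 and above 0 in replicate 1. Without composition factors the replicate 2 medians of the early steps and of SREBP control were 0.028 and 0.010, of the other sign than above. These are descriptions of 3 libraries, and no difference between role groups was tested.

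**Figure D3:**
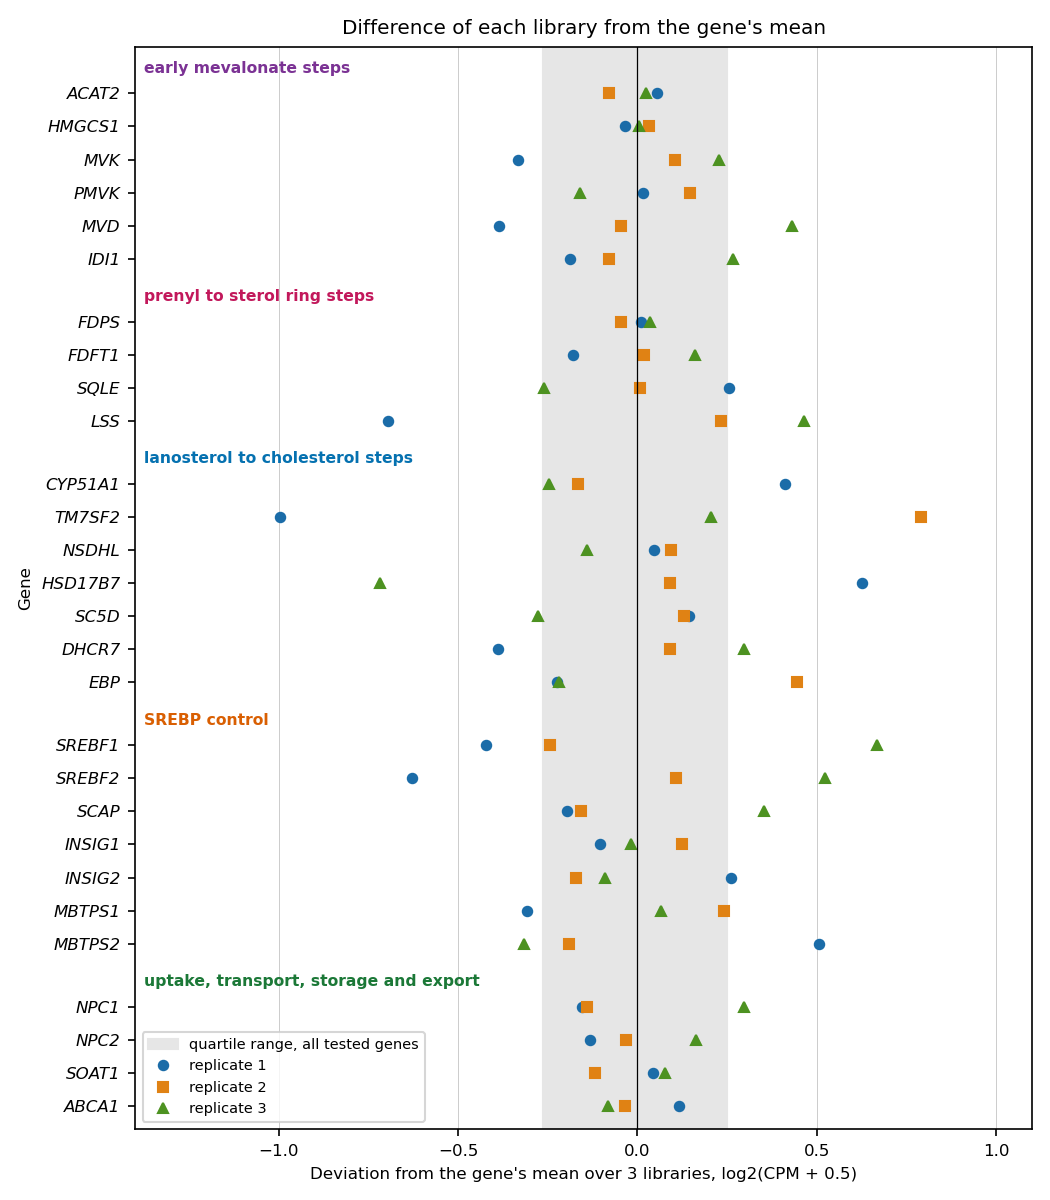
Deviation of each library from the gene's mean over the 3 libraries, on the log2(CPM + 0.5) scale. The grey band runs from the lowest lower quartile to the highest upper quartile of all tested genes in any library. These are the quartiles of replicate 1, -0.26 and 0.25, and those of replicate 2 were narrower, -0.13 and 0.16. In replicate 1 TM7SF2, LSS and SREBF2 lie furthest below their means and HSD17B7, MBTPS2 and CYP51A1 furthest above.

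Ratios of 2 genes within a library cancel the library's depth, and their change between libraries does not depend on transcript length. The 10 pairs with a row for both genes whose first gene is on the list of 29 are described here. An exact sign-flip permutation test of 3 libraries cannot go below p = 0.25, so the pairs are described by their values and by exact binomial intervals, which cover counting error only. In 3 of these pairs the intervals of all libraries overlapped. The share of other gene pairs with such overlap was not computed. NPC2 had 7.81, 8.30 and 6.94 reads per read of NPC1 in replicates 1 to 3, and SOAT1 had 12.5, 12.6 and 14.9 per read of ABCA1. SREBF2 had 36.4, 51.3 and 31.2 per read of SREBF1, where the few SREBF1 reads make the intervals wide. Within their wide intervals, the proportions of the lysosomal pair and of storage to export were thus not distinguishable between libraries.

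Other proportions shifted beyond counting error, as single genes often did (70.5% of tested genes). The ratio of HMGCS1 to SQLE was 1.26 (95% interval 1.22 to 1.31), 1.57 (95% interval 1.50 to 1.65) and 1.86 (95% interval 1.78 to 1.94), so each library stood apart from the others. The ratio of SQLE to LSS was 86.5 (95% interval 67.6 to 112), 37.1 (95% interval 29.5 to 47.5) and 26.2 (95% interval 21.9 to 31.5). Replicate 1 thus stood above both others for this pair of consecutive enzymes. The ratio of MBTPS1 to MBTPS2 was 0.251 (95% interval 0.208 to 0.302), 0.604 (95% interval 0.481 to 0.755) and 0.583 (95% interval 0.477 to 0.710), again with replicate 1 apart. The ratio of INSIG1 to INSIG2 was 0.428 (95% interval 0.374 to 0.490), 0.681 (95% interval 0.569 to 0.813) and 0.581 (95% interval 0.499 to 0.675), lowest in replicate 1. SCAP over INSIG1 was 0.519, 0.455 and 0.721, with replicate 3 above replicate 2. FDFT1 over FDPS was 0.946, 1.13 and 1.18, and the intervals of replicates 1 and 3 did not overlap.

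TM7SF2 and LBR, the genes of the sterol reductases of the same step, kept no fixed proportion. Their read ratio was 0.233 (95% interval 0.147 to 0.356), 1.42 (95% interval 0.945 to 2.15) and 0.781 (95% interval 0.542 to 1.12). LBR, which is also a protein of the nuclear envelope, stood at 13.8, 8.67 and 10.3 CPM, highest in replicate 1, where TM7SF2 was lowest. The mean log2 ratio was -0.60 ± 1.23 (SD, n = 3) and 0.071 without replicate 1.

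**Figure D4:**
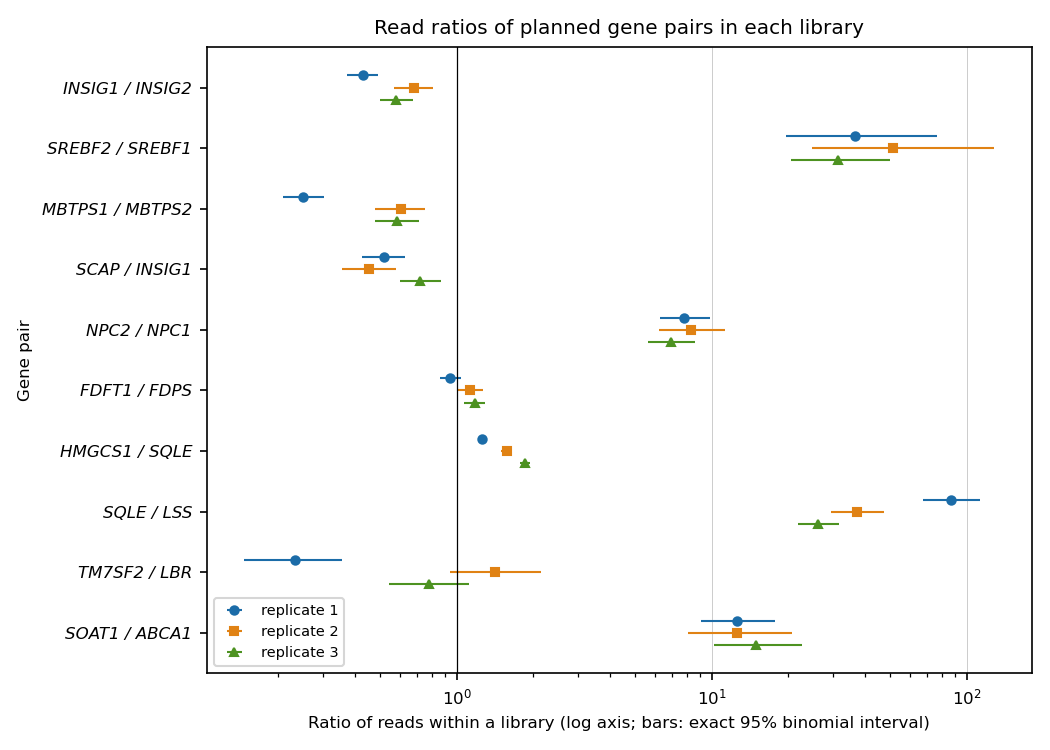
Ratio of the reads of 2 genes within each library, on a log axis, for 10 planned pairs, with exact 95% binomial intervals. The ratios of NPC2 to NPC1 and of SOAT1 to ABCA1 overlap in all libraries, whereas SQLE to LSS, MBTPS1 to MBTPS2 and TM7SF2 to LBR are set apart in replicate 1.

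Of 47 further genes of sterol metabolism listed, 45 had a row and 37 reached 1 CPM in each library. Of the 36 tested, 0 passed an adjusted p of 0.05 against the edgeR trend, 4 had an unadjusted p under 0.05 (background 5.24% of tested genes), and DESeq2 marked 0 as dispersion outliers. Beyond counting error 26 of them differed, or 72.2%, near the 70.5% of all tested genes. Among the synthesis genes, MSMO1, the C4-methyl oxidase that works with NSDHL and HSD17B7, stood at 353, 164 and 198 CPM in replicates 1 to 3, and ACAT1, the mitochondrial thiolase, at 154 ± 5.78 CPM (SD, n = 3). MSMO1 was highest in replicate 1, as were CYP51A1, HSD17B7 and 39.3% of all tested genes, whereas NSDHL was highest in replicate 2. ERG28, which tethers the C4 demethylation enzymes and is listed in the table as C10H14orf1, stood at 41.8, 44.7 and 46.4 CPM (44.3 ± 2.34). GGPS1, which diverts prenyl units to protein anchors, stood at 40.9, 43.9 and 13.8 CPM, and TMEM97 at 27.9 ± 2.48 CPM, while FAXDC2 was at 0 reads.

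All 11 of 11 genes that control SREBP or the turnover of enzymes of synthesis reached 1 CPM in each library. RNF139, a ubiquitin ligase of the endoplasmic reticulum, stood at 79.7, 67.3 and 17.0 CPM, a span of 4.68-fold (adjusted p = 0.307, edgeR trend). ERLIN1 and ERLIN2, membrane proteins that take part in protein turnover there, stood at 51.2 ± 10.3 and 41.0 ± 5.26 CPM. The liver X receptor genes NR1H2 and NR1H3 stood at 8.96 ± 3.26 and 7.14 ± 2.99 CPM, PAQR3 at 6.83 ± 1.55 CPM, and the partner receptor RXRA at 8.43, 6.25 and 19.3 CPM, with a mean of 11.3 that was 7.35 without replicate 3.

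Uptake genes had 8 of 8 rows at this level. VLDLR, a lipoprotein receptor, stood at 106 ± 18.9 CPM, and the large endocytic receptor LRP1 at 780.3, 1145 and 1383 CPM. SCARB1, which takes cholesterol ester from high-density lipoprotein, stood at 21.6 ± 1.78 CPM, and LIPA, the lysosomal lipase that frees cholesterol from ester, at 97.5 ± 17.4 CPM. MYLIP, a ubiquitin ligase that marks lipoprotein receptors for degradation, stood at 10.3 ± 2.48 CPM, and LRP8 at 7.22 ± 2.32 CPM.

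For transport, storage and export 10 of 17 genes reached 1 CPM in each library. CAV1, the caveolar coat protein that binds cholesterol, stood at 1469.8 ± 88.6 CPM, OSBPL9 at 113 ± 12.7 CPM, the oxysterol hydroxylase CYP7B1 at 20.2 ± 6.22 CPM, and NCEH1, which hydrolyses cholesterol ester, at 19.5 ± 1.65 CPM. SOAT2, the esterifying enzyme of liver and intestine, and ABCG1, an exporter to high-density lipoprotein, had 0 reads throughout, a limit of 0.605 CPM in the shallowest library if reads could be assigned to them. ABCG4 had 0, 0 and 1 reads, STARD3 7, 12 and 14, APOE 4, 12 and 25, CH25H 28, 11 and 5 and CYP27A1 9, 4 and 33. Of the ABC exporters on both lists, ABCA1 was thus the one with reads above this limit in every library.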

How the data were processed

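The submitters' processing notes name TopHat2 2.0.10 and HTSeq 0.6.1, which align and count reads, and no genome build, annotation, counting mode or strand setting was found in the sources used here. The authors deposited raw read counts per gene, 1 column per replicate, and the 5 summary rows that name no gene were left out. Reads in no annotated gene were 58.9 to 62.0% of each library, and reads with several alignments, 7.52 to 7.99%, were not assigned to genes, which leaves genes with near-identical copies uncertain. RefSeq names (ARS-UCD2.0) matched 28 of 28 members, and the span of 10 overlapped another gene there. Of the other pathway genes named here, PAQR3 overlapped BMP2K (712 reads) and FAXDC2 overlapped CNOT8 (558 reads). LIPA overlapped IFIT5 (1074 reads), among others, so the reads of these genes are uncertain to that extent.

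CPM was computed with TMM factors of 0.978, 1.02 and 0.998 in edgeR 4.0.16 and R 4.3.3, and log values are log2(CPM + 0.5). The spread test was run on genes with at least 10 counts per library, with the edgeR trended dispersion. It used chi-square with 2 degrees of freedom and Benjamini-Hochberg adjustment. On simulated data it missed many of the genes that were given a real difference. DESeq2 1.42.0 and a counting-error (Poisson) version were alternatives, the latter added after the data were seen. Intervals are exact Poisson or binomial intervals at 95%, and the limit that 0 reads allows is 3 counts, or 0.356 to 0.605 CPM. Neither covers more than counting error, and PCR copies of a molecule were not marked by identifiers. The members, lists and pairs were chosen with earlier results of these data known. All members are named, and of each list of other pathway genes the 4 highest, the 4 lowest, any below 1 CPM and any in a pair. GGPS1 was added after its values were seen, and some genes that this rule names are not reported here. Planned levels per length and promoter motif counts were not made, because no lengths or sequences were used here.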

Additional observations from a re-analysis of the deposited data

How the results depend on the processing

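The count of 0 members more variable than the edgeR trend was also 0 with DESeq2 size factors, without composition factors, with 1 count per library as the minimum, with DESeq2 dispersion outliers and without each replicate. It was 1 at an unadjusted p under 0.05 and 18 against counting spread only. Over all genes the count was 2, and it was 5 with DESeq2 size factors, 547 at an unadjusted p under 0.05, 7351 against counting spread only, and 0 to 6 without 1 replicate. The median over members of the mean level was 54.2 CPM and 49.5 to 57.1 CPM without 1 replicate. Of 140 member levels recomputed, 139 stayed within 1 SD of the replicates, the exception being HMGCS1 (873 CPM without replicate 1), as did 54 of 54 median deviations and 55 of 55 ratios. For levels and ratios this limit is weak, because leaving out 1 of 3 libraries cannot by itself move a mean by 1 SD. These counts therefore do not show that levels and ratios are stable. The mean log2 ratio of TM7SF2 to LBR changed sign within the limit, from -0.60 to 0.071 without replicate 1. The number of members at the level limit was 23 at 5 CPM and 28 in the other settings. Lengths and promoter motifs were planned and not run. No paired analysis was possible because there is 1 group. Depth limits MVK, PMVK and ABCA1, which did not pass the test against counting error, and SREBF1, which was not tested.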
